A study of Mus musculus with 115 samples.

Results

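Expression of 44 genes that fold, modify, move and destroy proteins of the endoplasmic reticulum (ER), or that signal its unfolded protein response (UPR), was examined in mouse prostate tumors. The genes were chosen by name, as autosomal ER chaperones, disulfide isomerases, translocon subunits, genes of ER-associated degradation (ERAD) and UPR genes, together with Dnajc10. All 44 were matched by symbol to 1 of the 45699 genes of the deposited table. They lie on 18 chromosomes, none of them X, and none had a near-identical copy elsewhere in the transcriptome.

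RNA was sequenced from bulk, snap-frozen prostate tissue, labelled as tumor, of (TRAMP x WSB/EiJ) F2 males, all of them transgene positive, and the labels place them in 1 group. TRAMP mice carry the SV40 T antigen under a minimal probasin promoter, which is active in prostate epithelium and responds to androgen, and WSB/EiJ mice are an inbred strain of wild origin. By the study's methods, RNA of prostates under 1 g was taken from the ventral lobe, and tumor content was not checked by pathology; which libraries these were is not in the labels. The labels give no treatment, no transgene-negative control and no age for single mice, so the members were compared across libraries and not between conditions. Values are TPM, transcript abundances scaled by gene length, in which each library sums to the same total, so the read count behind a value is unknown, while the labels give at least 43000000 read pairs as the aim for each library.

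Secretory and membrane proteins enter the ER through the Sec61 translocon, fold there with chaperones and disulfide isomerases, and are drawn back to the cytosol and degraded when folding fails. When unfolded protein accumulates, the sensors IRE1 (Ern1), ATF6 and PERK raise the transcription of chaperones and ERAD genes through XBP1, ATF6 and ATF4. Prostate epithelium secretes large amounts of protein into seminal fluid, and Tgm4, a transglutaminase of that fluid, is one of its most abundant messages. Chga, chromogranin A, is a granule protein of neuroendocrine cells, which are also found in TRAMP tumors.

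Expression did not form 1 continuous set of libraries. On the first principal component of 14623 expressed genes, which took up 48.7% of their variance, libraries lay apart in a larger set of 79 and a smaller set of 36. The same division came from the component without the 44 genes, other ER genes and cell type markers, with 0 libraries moved. Relations across libraries were therefore computed within each set, and differences between the sets were not tested. In the larger set the summed TPM of 10 luminal secretory markers ran from 328 to 153071 and that of 10 neuroendocrine markers from 1.17 to 42.7. In the smaller set the luminal sum ran from 43.6 to 2795 TPM and the neuroendocrine sum from 7.69 to 1061 TPM. Krt8 and Krt18, which mark luminal epithelium, are 2 of those markers, and no gene of either list was at 0 in every library.

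Nearly all members were expressed. A level of 1 TPM in at least 50% of libraries was reached by 42 of the 44, against 27.8% of all 45699 genes, and 39 members reached it in every library. The median of the members' median levels was 57.5 TPM, while that of the 12697 genes detected was 6.94 TPM. Summed over the members, the lowest library had 891 TPM, the median library 4866 TPM and the highest 18266 TPM, which is 0.0891%, 0.487% and 1.83% of all TPM. Members varied widely over all libraries: the median SD of log2(TPM + 1) was 0.98 for the 42 members tested, above the 0.63 of all genes tested, and 32 of the 42 exceeded that value. These SDs, and the ranges over all libraries given below, pool both sets and so include any difference between them. Median levels in the larger and the smaller set were 354 and 22.3 TPM for Dnajc10. They were 854 and 144 TPM for Hspa5, 669 and 46.3 TPM for Pdia6, 50.2 and 49.5 TPM for Atf4, and 15.8 and 18.7 TPM for Ddit3. Beside Ddit3, only Trib3 (1.23 and 1.8 TPM) and Ern2 (0.02 and 0.04 TPM) had the higher median in the smaller set. All other members had the lower median there, which was not tested or set against all genes. SDs within each set are not given here. In bulk tissue, fewer cells of a type and less RNA per cell cannot be told apart.

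**Figure D1:**
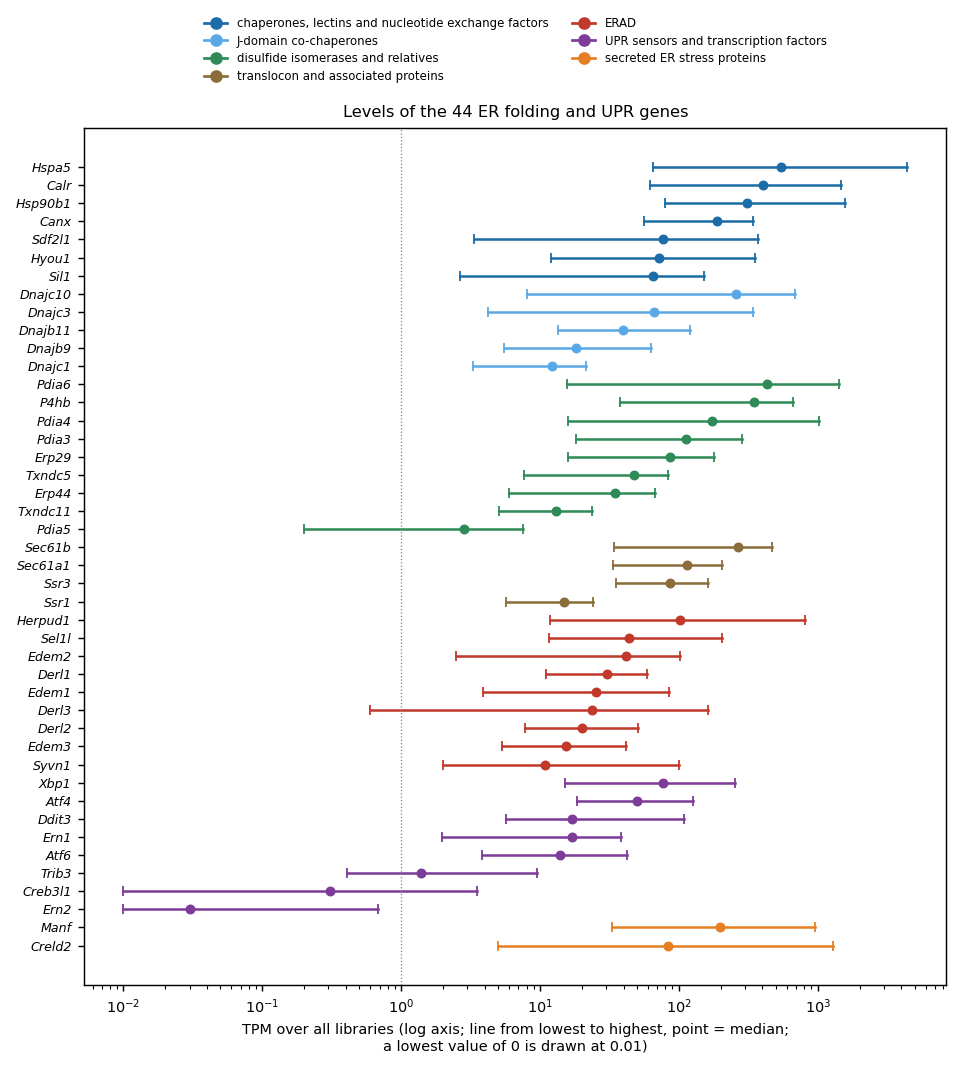
Lowest, median and highest TPM of each of the 44 members over all libraries, on a log axis, coloured by role. Hspa5 has the highest median, 543 TPM, Derl3 and Creld2 span the widest ranges among members detected, and the medians of Ern2 and Creb3l1 lie under 1 TPM.

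The most abundant member was a chaperone. Hspa5 encodes BiP, the HSP70 chaperone of the ER lumen, which binds unfolded chains and keeps the UPR sensors inactive. Its lowest, median and highest values over all libraries were 64.9, 543 and 4410 TPM. Calr, a lectin chaperone of glycoproteins, had 62.3, 401 and 1482 TPM, and Hsp90b1, the HSP90 of the ER, had 80.1, 312 and 1580 TPM. Canx, the membrane-bound partner of calreticulin, varied less, from 55.7 to 344 TPM with a median of 189 TPM. The nucleotide exchange factors of BiP, Hyou1 and Sil1, had medians of 72.5 and 64.7 TPM, and Sdf2l1, a partner of BiP and its co-chaperones, spanned 3.33 to 371 TPM, a 111.5-fold range.

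Among the 5 J-domain co-chaperones, which deliver clients to BiP, Dnajc10 was highest. Dnajc10, also called ERdj5, joins a J domain to thioredoxin domains and reduces disulfides of proteins bound for degradation. It lies on chromosome 2 (chr2:80315466-80354043, plus strand, GRCm38), and its values were 8.0, 258 and 684 TPM. Dnajc3, which also inhibits the kinase PERK, had 4.20, 66.6 and 344 TPM. Dnajb11, Dnajb9 and Dnajc1 had medians of 39.9, 18.3 and 12.2 TPM.

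The disulfide isomerases and their relatives ranged from Pdia6, at 15.7, 431 and 1428 TPM, to Pdia5, at 0.20, 2.83 and 7.61 TPM. P4hb, the classical protein disulfide isomerase, had 37.6, 345 and 664 TPM. Pdia4 had 15.95, 174 and 1024 TPM. Of the translocon genes, Sec61b and Sec61a1 had medians of 267 and 115.2 TPM, and the translocon-associated Ssr3 and Ssr1 had 86.1 and 14.9 TPM. In these 4 genes the highest library had between 4.21 and 13.7 times the level of the lowest.

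ERAD genes had lower levels and some of the widest ranges. Herpud1, which brings the ubiquitin ligase complex together, had 11.9, 101.1 and 804 TPM. Derl3, a derlin of the retrotranslocation complex that is abundant in secretory tissues, had 0.60, 23.8 and 163 TPM, a 271-fold range, while its relatives Derl1 and Derl2 spanned 5.32 and 6.54-fold ranges. Sel1l and Syvn1, the adaptor and the ligase of that complex, had medians of 43.6 and 10.9 TPM. The secreted proteins Manf and Creld2, both known as ER stress targets, had 32.9, 197 and 953 TPM and 4.97, 84.1 and 1284 TPM, which is a 258-fold range for Creld2.

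The medians of the signalling genes were lower than those of the main chaperones Hspa5, Calr and Hsp90b1. Xbp1 had a median of 76.9 TPM, Atf4 of 50.2 TPM, Ddit3 (CHOP) and Ern1 of 17 TPM each, Atf6 of 13.9 TPM and Trib3 of 1.39 TPM. Ern2, the epithelial paralog of Ern1, had a median of 0.03 TPM and a highest value of 0.68 TPM. Creb3l1, a transcription factor of the ATF6 type, had a median of 0.31 TPM and a highest value of 3.53 TPM. These were the members that failed the detection rule, and both were also left out of the tests below, which used genes averaging 1 TPM or more. Activation of these factors occurs by splicing, cleavage or translation, which gene-level TPM does not measure.

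Single libraries held many of the extremes. The library W4438 had the highest value of 17 members, among them Hspa5 at 4410 TPM, Hsp90b1 at 1580 TPM, Herpud1 at 804 TPM and Atf4 at 127 TPM. Tgm4 there was 14887 TPM, while Xbp1, at 102.9 TPM, was not at its highest. The library W1154, of the larger set, had Dnajc10 at 8.0 TPM against a median of 354 TPM in that set, and Hspa5, Creld2, Pdia6 and Hsp90b1 were also at their lowest of the 79. In W1154 Tgm4 was 0.64 TPM, while Krt8 was 110 TPM. Counts over the larger set are given below with and without this library.

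Promoter sequences were searched for elements known to respond to ER stress. The ER stress element, bound by ATF6 and NF-Y, was searched on both strands as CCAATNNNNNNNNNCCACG in a window from 250 bases before to 50 after the RefSeq start (GRCm38.p6). It was found in 9 of the 35 members that have such a window, 25.7%, and in 37 of 27025 genes with one, 0.137%. The members were chosen by name as ER and UPR genes, so their higher share is a description and not a test. The 9 were Hspa5, Calr, Canx, Hsp90b1, Dnajc3, Pdia6, Creld2, Derl3 and Syvn1, and Hsp90b1 had a pair of matches. The matches below leave out those of Canx and Syvn1 and 1 of the pair in Hsp90b1, a choice made with the relations to Hspa5 known. The fixed bases of the element are in capitals, and each is printed on the strand that reads CCAAT.
Hspa5, chr2:34772020-34772048, plus strand: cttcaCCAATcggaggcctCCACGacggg
Calr, chr8:84847070-84847098, plus strand: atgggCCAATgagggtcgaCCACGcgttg
Hsp90b1, chr10:86705528-86705556, plus strand: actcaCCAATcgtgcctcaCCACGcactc
Dnajc3, chr14:118937822-118937850, plus strand: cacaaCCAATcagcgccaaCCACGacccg
Pdia6, chr12:17266486-17266514, plus strand: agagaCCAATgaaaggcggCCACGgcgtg
Creld2, chr15:88819515-88819543, minus strand: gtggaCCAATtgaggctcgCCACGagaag
Derl3, chr10:75893237-75893265, minus strand: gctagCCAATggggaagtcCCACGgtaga
In Hspa5 this match ends 47 bases before the start, and in Derl3 it lies 138 to 156 bases before it.

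Other elements were rarer among the members. The second form of the ER stress element, ATTGG and CCACG with 1 base between them, was found in Dnajb11 and Herpud1, 5.71% of the 35 windows and 0.0444% of all windows, and the letters are again in capitals.
Herpud1, chr8:94386368-94386396, plus strand: cgggcgctgATTGGgCCACGttggacact
Dnajb11, chr16:22857843-22857871, plus strand: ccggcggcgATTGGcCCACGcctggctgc
The unfolded protein response element TGACGTGG, a site of ATF6 and XBP1, was found in Txndc5 and Txndc11, 5.71% of the members and 0.714% of all windows. The C/EBP-ATF element TGATGCAA, a site of ATF4, was found in Herpud1 alone, 2.86% of the members and 1.03% of all windows. A match is a stretch of letters and not evidence of binding, and windows for Hyou1, Manf, Atf6, Sec61a1, Sil1, Erp29, Derl1, Ern2 and Creb3l1 were not analysed here.

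The first question was which members moved with Hspa5. Each gene's log2(TPM + 1) was fitted on that of Hspa5 with limma over all genes, and a slope is the change in log2(TPM + 1) per unit of log2(TPM + 1) of Hspa5, which for genes well above 1 TPM is per doubling. A gene was called when its Benjamini-Hochberg adjusted p over all genes tested was under 0.05. Hspa5 ran from 167 to 4410 TPM, with a median of 854 TPM, in the larger set, and from 64.9 to 543 TPM, with a median of 144 TPM, in the smaller set.

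In the 79 libraries all 41 other members tested were higher with Hspa5, where 32.7% of all 14621 genes tested were higher and 10.8% lower. After median-of-ratios scaling, 40 of the 41 members were higher and 0 lower, where 29.7% of all genes were higher and 35.6% lower. Without W1154 also 40 were higher and 0 lower, where 27.3% of all genes were higher. The median slope of the members was 0.47 and that of all genes 0.04. Ranked by the moderated t statistic among all 14621 genes, members took 9 of the first 10 places and 23 of the first 100. Among the first 10 only Selenok, which encodes a selenoprotein of the ER membrane and took place 7, was not a member, and it is named here after its value was seen.

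Manf had the closest relation to Hspa5. It spanned 70.3 to 953 TPM in the 79 libraries, and its slope was 0.77 ± 0.024 (SE, adjusted p = 9.06e-44, limma). Pearson's r was 0.969 and Spearman's rho 0.969, each with a permutation p of 1e-05, the smallest that the permutations can give, and r became 0.964 once the 2 libraries farthest on the Hspa5 axis were left out. Hyou1 had a slope of 0.78 ± 0.029 (adjusted p = 3.70e-38, r = 0.953, rho = 0.954) and Dnajc3 one of 0.76 ± 0.031 (adjusted p = 6.34e-35, r = 0.942, rho = 0.940). Dnajc10 rose too, but less closely, with a slope of 0.53 ± 0.078 (adjusted p = 2.82e-08, r = 0.609, rho = 0.658), and took place 807. Without those 2 libraries the values of r were 0.949, 0.932 and 0.603.

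The steepest slopes on Hspa5 were those of Creld2, Derl3 and Pdia4. Creld2 rose by 1.33 ± 0.055 per unit of Hspa5, which is 2.51-fold per doubling, from 14.6 TPM in its lowest library of the set to 1284 TPM in its highest. Derl3 rose by 1.02 ± 0.067 and Pdia4 by 0.97 ± 0.045. At the other end, the slopes of Dnajc1 (0.16 ± 0.040), Xbp1 (0.16 ± 0.053) and Edem3 (0.13 ± 0.051) were the lowest, with adjusted p of 4.89e-04, 0.0112 and 0.0324. The translocon genes lay between 0.19 and 0.35. Members with the ER stress element in their promoter window had a median slope of 0.74 (8 genes, 0.33 to 1.33), and members with a window that lacks it 0.39 (26 genes, 0.13 to 0.97). That division of the members was not tested.

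All 6 signalling genes tested were higher with Hspa5 in the larger set. Ddit3, the factor CHOP that is made when ER stress persists, spanned 5.67 to 108.6 TPM and rose by 0.69 ± 0.062 (adjusted p = 7.31e-16). Atf4, the factor downstream of PERK, rose by 0.42 ± 0.039 and its target Trib3 by 0.35 ± 0.038. Atf6 rose by 0.45 ± 0.055, and Ern1 by 0.21 ± 0.049. Differences between these slopes were not tested.

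**Figure D2:**
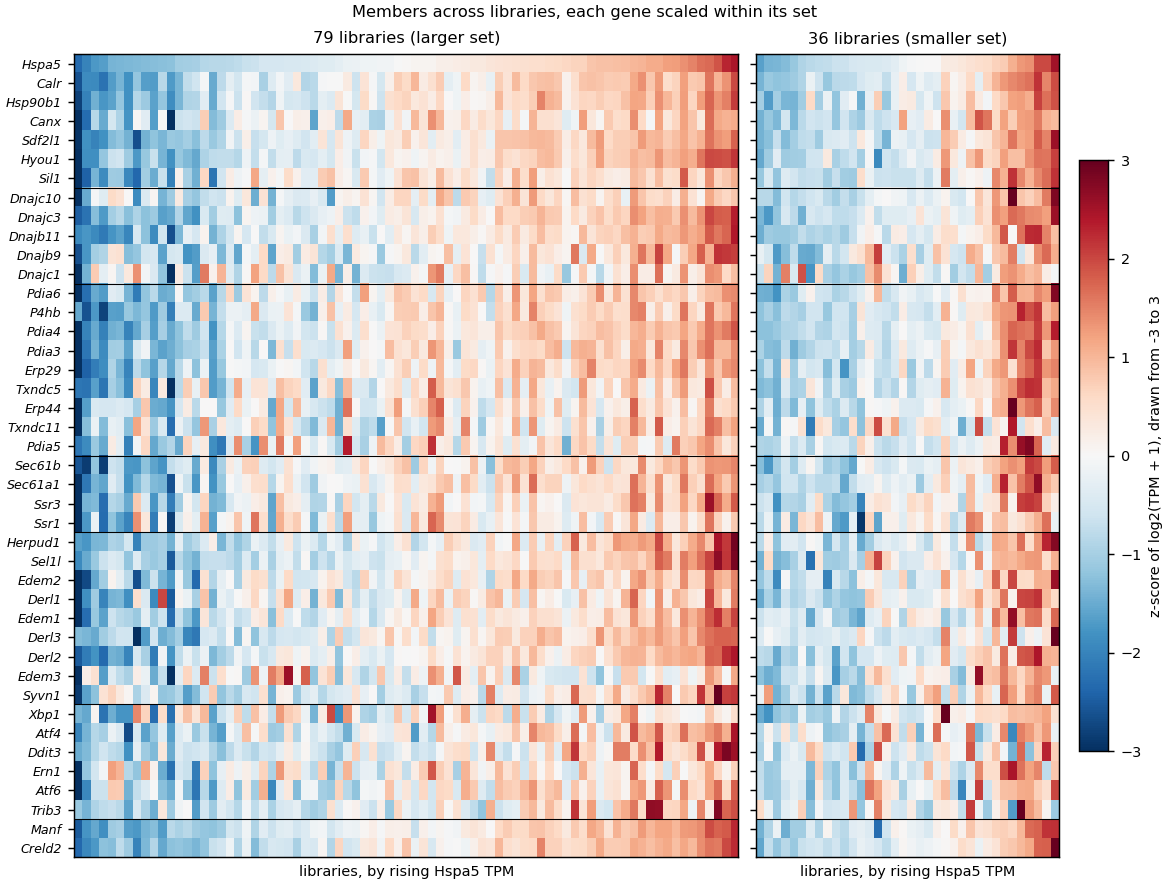
The 42 members tested (rows, grouped by role) in the 79 and the 36 libraries (columns, by rising Hspa5 TPM), as z-scores of log2(TPM + 1) scaled within each set, drawn from -3 to 3. Most rows pass from blue to red along Hspa5, most smoothly Manf, Hyou1 and Dnajc3 in the larger set, while Xbp1 and Edem3 do so least there.

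In the 36 libraries 37 of 41 members were higher with Hspa5 and 0 lower, where 46.4% of all 14611 genes tested were higher and 14% lower. After median-of-ratios scaling 34 members were higher and 0 lower, where 30.7% of all genes were higher and 24.7% lower. That scaling moved the median slope of all genes from 0.18 to 0.03, and the members' median slope from 0.54 to 0.52. Members took 7 of the first 10 places by t. The other places in the first 10 belonged to Selenos, Selenof and Serp1, all of them also genes of ER folding, translocation or degradation, and named here after their values were seen.

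Calr had the closest relation to Hspa5 in the smaller set, with a slope of 0.91 ± 0.056 (adjusted p = 2.30e-14, r = 0.947, rho = 0.932) over 62.3 to 369 TPM. Creld2 followed with 1.01 ± 0.064 (adjusted p = 2.46e-14, r = 0.943, rho = 0.948), and Pdia4 with 1.11 ± 0.074 (adjusted p = 9.75e-14, r = 0.934, rho = 0.919). Dnajc10 rose by 0.85 ± 0.094 (adjusted p = 1.47e-08, r = 0.839, rho = 0.885). Each r and rho had a permutation p of 1e-05, and leaving out the 2 farthest libraries gave r of 0.944, 0.958, 0.922 and 0.773. Xbp1 rose by 0.71 ± 0.131 (adjusted p = 2.56e-05), and Ddit3 by 0.25 ± 0.109 (adjusted p = 0.0430). The members not called were Atf4 (0.14 ± 0.077, adjusted p = 0.107), Trib3 (0.15 ± 0.139, adjusted p = 0.366), Dnajc1 (0.17 ± 0.115, adjusted p = 0.191) and Txndc11 (0.12 ± 0.077, adjusted p = 0.196).

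Other cell types also moved along Hspa5 in the smaller set. Of 9 stroma markers, 8 were higher and 0 lower with Hspa5, with a summed TPM from 12.7 to 1929. All 7 immune markers tested, of 9, were higher, with a sum from 17.8 to 675 TPM, and 6 of the 10 luminal markers were higher, while 6 of 10 neuroendocrine markers were lower. Without the 4 libraries lowest in Chga, which stand apart in this set, 35 members were higher and 0 lower, where 32.5% of all genes were higher. With the first principal component of the 36 libraries as a covariate, 19 of the 41 members were higher and 0 lower, where 2.24% of all genes were called. In the larger set 2 of 9 stroma markers were higher and 1 lower, 0 of 7 immune markers were called, 6 luminal markers were higher and 4 lower, and 41 of 41 members were called with that covariate, where 61.9% of all genes were called. Of the goblet and mucous cell markers, 3 of the 4 tested were higher in each set. Of the plasma cell markers, which mark another highly secretory cell, 4 of 8 were tested, and 1 was lower in the larger set (Igha) and 1 higher in the smaller (Ighm). Seminal vesicle markers were lower for 2 of 7 genes in the larger set and higher for 3 in the smaller. The part of these cell types in the results was not tested.

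Other genes of the pathway were also called with Hspa5. In the larger set, where 32.7% of all genes were higher and 10.8% lower, 21 of 22 other translocon, signal peptidase and oligosaccharyl transferase genes were higher, such as Ostc (0.40 ± 0.030) and Srp14 (0.41 ± 0.031), and Sec61a2, a paralog of Sec61a1, was lower (-0.15 ± 0.058). Of other ERAD genes 17 of 19 were higher, such as Selenos (0.46 ± 0.031) and Vcp (0.33 ± 0.032), the ATPase that extracts ERAD substrates. Of other folding enzymes 13 of 20 were higher, such as Ppib (0.42 ± 0.032), and of other UPR genes 11 of 17, with Nucb2 (-0.47 ± 0.140) and Vldlr (-0.24 ± 0.091) lower. In the smaller set, where 46.4% of all genes were higher and 14% lower, the same lists had 20, 14, 14 and 15 genes higher and 1, 1, 2 and 0 lower.

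The next question was which members moved with Dnajc10. In the 79 libraries Dnajc10 ran from 8.0 to 684 TPM, and 39 of 41 members were higher with it and 0 lower, where 28% of all genes were higher and 9.24% lower. After median-of-ratios scaling 39 were again higher, where 27.4% of all genes were higher and 31.6% lower. Without W1154, the library lowest in Dnajc10, 37 were higher and 0 lower, where 15.1% of all genes were higher. The median slope was 0.45 for members and 0.05 for all genes.

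Atf6, an ER-anchored sensor that is cleaved to a transcription factor, spanned 3.81 to 42.2 TPM in the larger set and had the closest relation to Dnajc10, with a slope of 0.61 ± 0.052 (adjusted p = 8.58e-17, r = 0.801, rho = 0.856). Pdia6 had 0.82 ± 0.074 (adjusted p = 1.15e-15, r = 0.782, rho = 0.745), and Edem2, a mannosidase-like protein that starts the trimming of glycans for ERAD, had 0.54 ± 0.049 (adjusted p = 2.08e-15, r = 0.781, rho = 0.775). Each of these had a permutation p of 1e-05, and without the 2 farthest libraries r was 0.840, 0.688 and 0.718. Edem3 (0.12 ± 0.059, adjusted p = 0.119) and Xbp1 (0.07 ± 0.064, adjusted p = 0.421) were not called. Members took 0 of the first 10 places by t and 3 of the first 100. Beside this, 6 of the 7 immune markers tested were lower with Dnajc10. Of 9 stroma markers 6 were lower, Col1a1 among them, and 3 higher, Des and Myh11 among them. Of 10 luminal markers 5 were higher and 1, Spink1, lower, and 3 of 4 goblet and mucous cell markers tested were higher. The part of these cell types in the result was not tested.

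In the 36 libraries Dnajc10 ran from 12.4 to 130 TPM, and 38 of 41 members were higher with it and 0 lower, where 37% of all genes were higher and 8.03% lower. After median-of-ratios scaling 34 members were higher, where 20.1% of all genes were higher and 14% lower. That scaling moved the median slope of all genes from 0.13 to 0.01 and that of the members from 0.54 to 0.44. Dnajc3 had a slope of 0.86 ± 0.075 (adjusted p = 3.88e-10, r = 0.896, rho = 0.888), Pdia6 one of 1.07 ± 0.099 (adjusted p = 7.45e-10, r = 0.878, rho = 0.839), and Erp44, which retains client proteins in the early secretory pathway by disulfide exchange, one of 0.59 ± 0.055 (adjusted p = 9.82e-10, r = 0.895, rho = 0.858). These held places 3, 9 and 10 among all genes, each permutation p was 1e-05, and leaving out the 2 farthest libraries gave r of 0.894, 0.841 and 0.869.

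Of the 41 members, 3 were not called with Dnajc10 in the smaller set, all of them signalling genes. Ddit3 had 0.16 ± 0.112 (adjusted p = 0.255), Atf4 0.06 ± 0.079 (adjusted p = 0.584) and Trib3 -0.01 ± 0.139 (adjusted p = 0.975). Stroma markers (8 of 9 higher), immune markers (7 of 7 tested higher) and luminal markers (7 of 10 higher) moved along Dnajc10 as well, and all 4 goblet and mucous cell markers tested were higher. Without the 4 libraries lowest in Chga, which stand apart in this set, 36 members were higher and 0 lower, where 27.5% of all genes were higher. With the first principal component of the 36 libraries as a covariate, 21 of 41 members were higher and 0 lower, where 5.40% of all genes were called. The part of these cell types was not tested.

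The members were then set against Tgm4. In the 79 libraries Tgm4 ran from 0.64 to 16895 TPM. The mixture rule that divided the libraries also divided its values, into 20 libraries from 0.64 to 2469 TPM and 59 from 2901 to 16895 TPM. This cut is that of the fitted model, and no wide gap in the values lies there. Over all 79, 35 of 42 members were higher with Tgm4 and 0 lower, where 12.2% of all genes were higher and 26.7% lower. After median-of-ratios scaling 40 members were higher, where 25.9% of all genes were higher and 31.9% lower. Without W1154, 31 members were higher and 0 lower, where 8.52% of all genes were higher. All 7 immune markers tested and 6 of 9 stroma markers were lower with Tgm4 over the 79, and their part in the result was not tested. Correlations are given only within the 59 and the 20.

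Within the 59 libraries rich in Tgm4, 40 of 42 members were higher with it and 0 lower, where 19.5% of all genes were higher and 16.3% lower. The median slope was 0.55 for the members and -0.0015 for all genes tested. Edem2 had the closest relation, with a slope of 0.54 ± 0.042 (adjusted p = 2.77e-16, r = 0.870, rho = 0.857). Atf6 had 0.57 ± 0.055 (adjusted p = 1.28e-12, r = 0.809, rho = 0.748) and Atf4 0.55 ± 0.054 (adjusted p = 1.91e-12, r = 0.805, rho = 0.785). Dnajc10 had 0.52 ± 0.058 (adjusted p = 8.15e-11, r = 0.772, rho = 0.715) and Hspa5 0.92 ± 0.138 (adjusted p = 2.99e-07, r = 0.657, rho = 0.656). Each r and rho had a permutation p of 1e-05, and without the 2 farthest libraries r was 0.869, 0.788, 0.762, 0.724 and 0.625.

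By role, all 7 chaperones, 5 J-domain genes, 9 isomerases, 4 translocon genes and both secreted stress proteins were higher with Tgm4 in the 59 libraries. The largest slope was that of Creld2, 1.21 ± 0.168, which is 2.32-fold per doubling of Tgm4. Of the ERAD genes 8 of 9 were higher, from Derl1 (0.27 ± 0.064) to Derl3 (1.03 ± 0.117), and Edem3 was not called (0.05 ± 0.087, adjusted p = 0.692). Of the signalling genes 5 of 6 were higher, among them Ddit3 (0.61 ± 0.154), and Xbp1 was not called (0.16 ± 0.083, adjusted p = 0.138). Members with the ER stress element had a median slope of 0.80 (9 genes) and those with a window that lacks it 0.46 (26 genes), which was not tested.

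**Figure D3:**
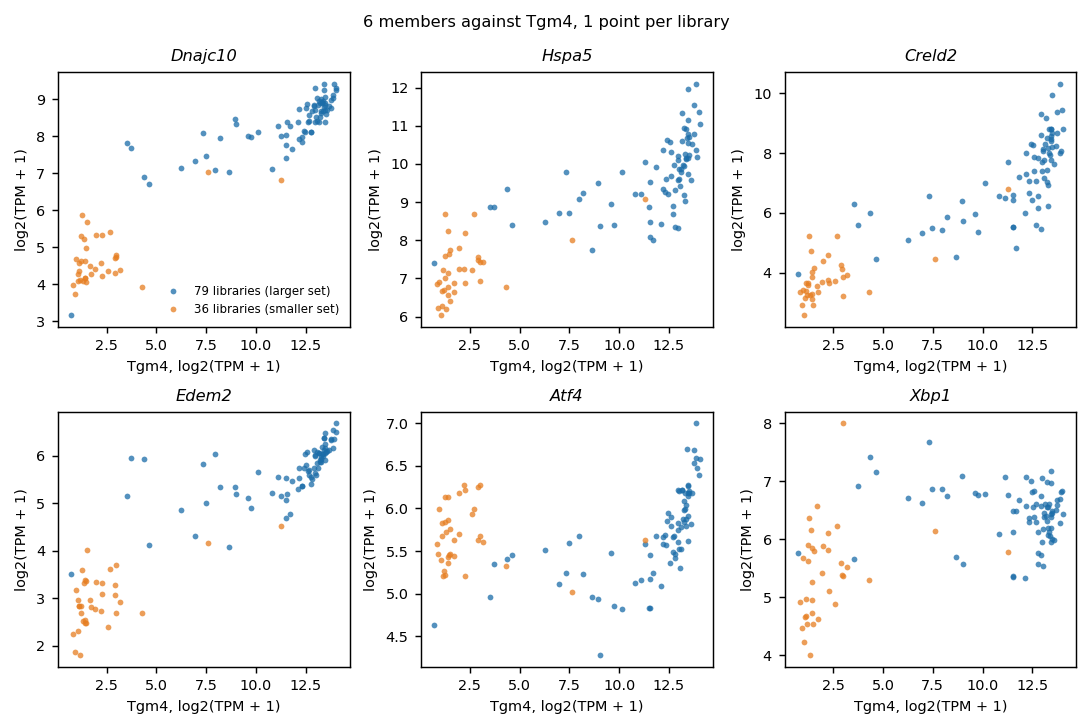
Levels of 6 members against Tgm4, both as log2(TPM + 1), with 1 point per library, blue for the 79 and orange for the 36 libraries. Within the 59 libraries at 2901 TPM of Tgm4 or more, at the right of each panel, Dnajc10, Hspa5, Creld2, Edem2 and Atf4 rise with Tgm4, and Xbp1 does not pass the test.

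In the same 59 libraries, some cell type markers moved with Tgm4 as well. Of the stroma markers 2 of 9 were lower with Tgm4, of the immune markers 1 of 7 tested, of the neuroendocrine markers 6 of 10 and of the seminal vesicle markers 4 of 7, while 4 of the 9 luminal markers tested were higher and 4 lower. Of the 4 plasma cell markers tested, 1 (Igha) was lower, and of the 4 goblet and mucous cell markers tested 3 were higher, Agr2 among them. Agr2 is also on the list of folding enzymes below, so it is counted in both. Among the other genes of the pathway, where 19.5% of all genes were higher, 20 of 22 translocon, signal peptidase and oligosaccharyl transferase genes were higher, such as Srp14 (0.45 ± 0.042) and Srpr (0.42 ± 0.044), 14 of 19 ERAD genes, 13 of 20 folding enzymes and 11 of 17 UPR genes. Asns, a target of ATF4, rose by 0.91 ± 0.060, and the folding enzymes Agr2 and Fkbp11 by 0.95 ± 0.071 and 0.94 ± 0.069. The part of these cell types in the result was not tested.

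Within the 20 libraries lower in Tgm4, limma called 0 of 42 members, where 0.219% of all genes were called, and 16 members had an unadjusted p under 0.05. All 42 slopes were positive, with a median of 0.08 beside 0.04 for all genes. Dnajc10 had 0.26 ± 0.065 (adjusted p = 0.0904, r = 0.670 with permutation p = 0.00130, rho = 0.586 with p = 0.00748), and leaving out the 2 farthest libraries gave r of 0.542. Pdia6 had 0.22 ± 0.058 (adjusted p = 0.143).

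In the 36 libraries Tgm4 had a median of 1.83 TPM and reached 195 and 2469 TPM in 2 of them. Over all 36, 11 of 42 members were higher with Tgm4 and 0 lower, where 2.18% of all genes were higher and 0.568% lower. After median-of-ratios scaling 19 were higher, where 3.54% of all genes were higher and 0.459% lower. Derl3 had the closest relation (0.30 ± 0.036, adjusted p = 3.53e-07, r = 0.826 with permutation p = 2.20e-04), but its rho was 0.247 (permutation p = 0.148). Creld2 (0.26 ± 0.050, adjusted p = 0.00120), Dnajc10 (0.24 ± 0.048, adjusted p = 0.00192) and Hspa5 (0.19 ± 0.053, adjusted p = 0.0349) were also called. The relation rests on those 2 libraries: without them limma called 0 members, where 0.0274% of all genes were called, 1 had an unadjusted p under 0.05, and r was 0.166 for Derl3, 0.269 for Creld2, 0.0224 for Dnajc10 and 0.271 for Hspa5. Without the 4 libraries lowest in Chga 20 members were higher and 0 lower, where 6.87% of all genes were higher. Of the seminal vesicle markers 4 of 7 were higher with Tgm4, of the goblet and mucous cell markers 3 of the 4 tested, and of the stroma and luminal markers 2 of the 9 tested each. With the seminal vesicle index as a covariate 2 members were called, and the part of these cells was otherwise not tested. With ranks in place of values limma called 0 members, where 0.0821% of all genes were called, and 24 had an unadjusted p under 0.05.

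Chga gave few relations to the members. In the 79 libraries Chga was barely detected, with a median of 0.30 TPM and 1 TPM or more in 7 libraries. Limma called 0 of 42 members in either direction, where 18.7% of all genes were higher with Chga and 0.137% lower, and 2 members had an unadjusted p under 0.05. Without W1154 also 0 were called, where 16.8% of all genes were higher, and 2 had an unadjusted p under 0.05. Median-of-ratios scaling, after which 12.1% of all genes were higher and 11.4% lower and 1 member was called, moved the median slope of all genes from 0.15 to -0.01 and that of the members from -0.07 to -0.17. Hspa5 had -0.14 ± 0.247 (adjusted p = 0.699) and Dnajc10 -0.14 ± 0.215 (adjusted p = 0.670). Over the 79, 8 of 9 stroma markers and 7 of the 9 other neuroendocrine markers were higher with Chga and 0 lower. Of 10 luminal markers 1 was higher, and 0 of the 7 immune markers tested were called. The part of these cell types was not tested. The mixture rule also divided Chga, between 0.81 and 1.19 TPM, which is near the floor and again without a wide gap. Limma called 0 members within either group. Of the members, 4 had an unadjusted p under 0.05 within the 72 libraries at 0.81 TPM or less, where 0.869% of all genes were called, and 0 had one within the 7 at 1.19 TPM or more, where 0.0% of all genes were called.

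In the 36 libraries Chga ran from 0.15 to 479 TPM, with 4 libraries at 0.15 to 2.55 TPM apart from the other 32 at 21.15 TPM or more. Over all 36, 12 of 42 members were lower with Chga and 0 higher, which is 28.6% of the members, where 24.2% of all genes were lower and 9.94% higher. After median-of-ratios scaling 8 members were lower, where 19.1% of all genes were lower and 17.3% higher. The members' share was thus near that of all genes. By t statistic, Pdia5 came first (slope -0.28 ± 0.050, adjusted p = 5.19e-05), then Ssr3 (-0.10 ± 0.029, adjusted p = 0.00692) and Sec61a1 (-0.12 ± 0.037, adjusted p = 0.0119). Hspa5 (-0.11 ± 0.063, adjusted p = 0.170) and Dnajc10 (-0.08 ± 0.065, adjusted p = 0.368) were not called.

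The 12 calls rest on the 4 libraries low in Chga. Pdia5 was 3.95 to 7.61 TPM in those 4 and 0.20 to 3.14 TPM in the other 32. The values of Ssr3 and Sec61a1 in the 4 and the 32 did not overlap either. Those of Hspa5 did, at 222 to 414 TPM in the 4 and 64.9 to 543 TPM in the 32. Dnajc10 values overlapped too, at 36.5 to 41.3 TPM and 12.4 to 130 TPM. How many of all genes lack such an overlap was not counted. Within the 32, 0 members were lower with Chga and 3 were higher, where 9.31% of all genes were called in either direction. These were Xbp1 (0.47 ± 0.106, adjusted p = 0.00784), Derl1 (0.20 ± 0.048, adjusted p = 0.0124) and Dnajb11 (0.21 ± 0.063, adjusted p = 0.0344), all named after their values were seen. The slopes within the 32 were 0.046 ± 0.072 for Pdia5, 0.051 ± 0.049 for Ssr3 and 0.13 ± 0.051 for Sec61a1, with adjusted p of 0.751, 0.554 and 0.0884. With ranks over the 36, limma called 0 members, where 1.03% of all genes were called, and 0 had an unadjusted p under 0.05. With the first principal component of the 36 libraries as a covariate, 7 members were higher with Chga and 0 lower, where 9.61% of all genes were higher. Over the 36, 3 of the 7 immune markers tested and 1 of 9 stroma markers were lower with Chga, and all 9 other neuroendocrine markers were higher, and the part of these cells was not tested.

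**Figure D4:**
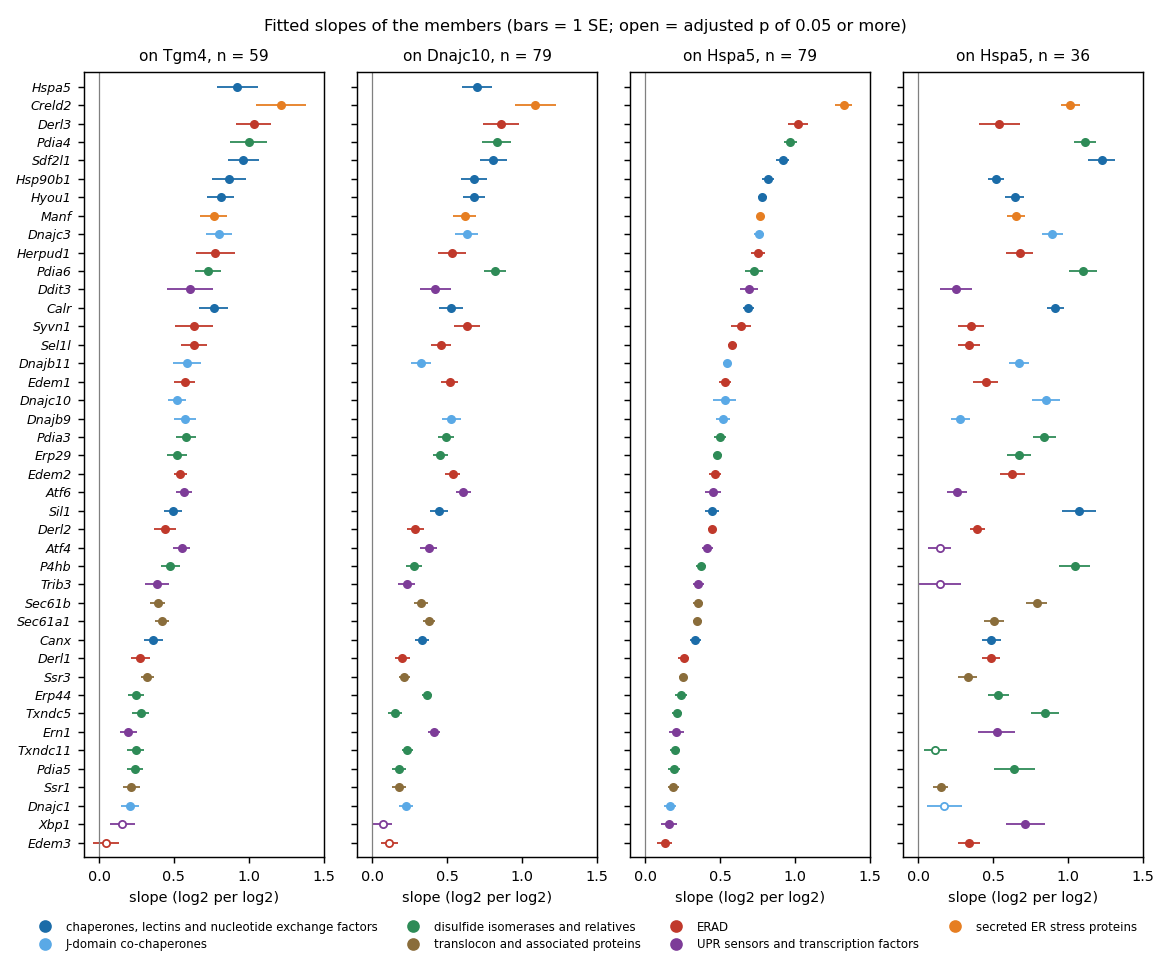
Slopes of members (points, with 1 SE as bars, coloured by role, open where the adjusted p is 0.05 or more) on Tgm4 in 59 libraries, on Dnajc10 and on Hspa5 in 79, and on Hspa5 in 36, ordered by the slope on Hspa5 in the 79. Creld2 has the steepest slope in the first 3 panels, and Xbp1 and Edem3 are the lowest in them.

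Some members share exon bases with a neighbour, and the kit is not stated to keep strand, so reads there cannot be assigned to 1 gene with certainty. This holds for 13 members, with the longest overlaps between Erp29 and Naa25 (2210 bases), Dnajc1 and Mllt10 (749 bases) and Hsp90b1 and 1810014B01Rik (415 bases), all on opposite strands. The neighbours had median levels of 7.72, 12.9 and 1.41 TPM. Hspa5 and Dnajc10 share no exon bases with another gene, and Manf shares at most 166 bases with one.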

How the data were processed

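RNA of (TRAMP x WSB/EiJ) F2 prostates, 1 library per labelled mouse, was analysed as 1 group. The study's methods count fewer prostates than there are libraries in the table, and all labelled libraries were used. The labels W7822 and W78022 are nearly alike but their values differ (Dnajc10 602 and 275 TPM), and both were kept. The authors depleted ribosomal RNA, mapped trimmed reads with Bowtie2 2.2.5 to an allele-specific transcriptome and quantified genes with RSEM 1.2.20, and they deposited TPM, which keeps no read counts; CASAVA 1.8.2 and the build GRCm38 are also named in the submitters' processing notes. The annotation release is not given in the sources used here, and positions are from GENCODE M21. Counting error could not be estimated, so neither count models nor counting intervals were applied.

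The members, lists and tests were chosen with earlier results of these data known. Libraries were divided on the first principal component of log2(TPM + 1) where 2 normal components beat 1 by over 10 in BIC, with Ashman D over 2 and at least 6 libraries a set. Within sets, log2(TPM + 1) of every gene with a mean of at least 1 TPM was fitted by limma 3.58.1 (R 4.3.3, lmFit and eBayes with trend, two-sided) on that of Tgm4, Chga, Dnajc10 or Hspa5, 8 fits in all, with Benjamini-Hochberg adjustment over all genes of a fit. Slopes understate changes of low genes. Pearson and Spearman correlations had 100000 permutations, two-sided, and are also given without the 2 libraries farthest from the median on the x axis. P-values measure the spread between these libraries. Named in each fit are Dnajc10, Hspa5 and the 3 members per direction of largest t; others are given as counts, ranges, the ends of a range, whole roles or members not called. Beyond that rule, the signalling genes, Creld2, Derl3 and Pdia4 were given values after these were seen. Alternatives were a pseudocount of 0.1 TPM, median-of-ratios scaling, rescaling without the 20 genes of largest share, ranks and no filter. Covariates (first component, plasma cell or seminal vesicle index) and left-out libraries were also used. Fits within groups of Tgm4 or Chga values were added after the data were seen. So were those without the library lowest in Dnajc10 or the 4 lowest in Chga. BLAST+ 2.17.0 was used to look for copies, meaning another gene's transcript with 80% of its length matching a member's transcript at 95% identity. Scripts were tested on simulated data (Python 3.11.15 with scipy 1.17.1, numpy 2.4.6, scikit-learn 1.9.0, pandas 2.3.3 and matplotlib 3.10.9). Values of 1 marker gene are not reported here.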

Additional observations from a re-analysis of the deposited data

How the results depend on the processing

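Counts of members called stayed within 1.5 times the reported count under 84 of 100 recomputations and moved in 16. For Tgm4 in the larger set, the 35 became 0 within the 20 libraries lower in Tgm4, a smaller sample, and without the 2 farthest libraries 31 were higher and 1, Xbp1, lower. For Tgm4 in the smaller set, the 11 became 19 with median-of-ratios scaling, 0 with ranks, 0 without the 2 farthest libraries, 20 without the 4 libraries lowest in Chga, 3 with the plasma cell index and 2 with the seminal vesicle index as covariate. For Chga in the larger set, the 0 became 2 with a pseudocount of 0.1 TPM, 1 with median-of-ratios scaling and 1 with no filter. For Chga in the smaller set, the 12 became 0 with ranks, 1 (Pdia5) without the 2 farthest libraries, and, all in the opposite direction, 3 within the 32 libraries higher in Chga and 7 with the first principal component as covariate. That covariate also gave 21 in place of 38 for Dnajc10 and 19 in place of 37 for Hspa5 in the smaller set. The cause of these changes was not tested.

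Of the members named in a fit, single values changed sign against Chga alone. In the larger set Dnajc10 had a slope of 0.31 within the 72 libraries lower in Chga, and Hspa5 had 0.029 with ranks, 0.31 within the 72 and 0.30 within the 7. In the smaller set, with ranks and with the first component as covariate, Dnajc10 had 0.064 and 0.14, Hspa5 0.059 and 0.13, and Sec61a1 0.14 and 0.027. Within the 32 libraries higher in Chga, Dnajc10 had 0.083, Hspa5 0.19, Pdia5 0.046, Ssr3 0.051 and Sec61a1 0.13. Of 367 recomputed values of single members, 328 kept direction and call, 24 kept direction and lost the call, and 15 changed sign. Leaving out W78022 moved no count of members. Counting error could not be computed from TPM, which matters most for members near 1 TPM such as Trib3 and Pdia5. No paired analysis was possible because there is 1 group and nothing in the labels pairs its mice.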
